A study of Mus musculus with 47 samples.

Results

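Patch-RNAseq profiles of single NPY-positive neurons were divided by whether they contained reads of Nos1, the gene of neuronal nitric oxide synthase. Of 23 cells, 10 from the auditory cortex (AC) and 13 from CA3, 17 had Nos1 reads and 6 had none. The 17 cells were 7 of AC and 10 of CA3, and the 6 cells were 3 of AC and 3 of CA3. The whole series held 47 cells. The Nos1 count itself chose the 2 sets, so the level of Nos1 is described here and supports nothing. Differences in other genes were taken within AC and within CA3 first, and genes with the same direction in both regions were then set apart.

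Neuronal nitric oxide synthase makes nitric oxide from arginine when calcium and calmodulin rise in the cell. Nitric oxide crosses membranes and activates soluble guanylyl cyclase in nearby processes, the cGMP formed acts on protein kinases and channels, and phosphodiesterases break it down. Many neurogliaform cells and hippocampal Ivy cells, GABAergic neurons that express neuropeptide Y and have dense local axons, contain the enzyme, while other neurogliaform cells lack it.

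All 23 cells came from acute slices of mice aged 3 to 8 weeks in which a fluorescent protein marks cells that express neuropeptide Y. The strain is NPY-hrGFP according to the methods of the study and NPY-EGFP according to the series record. AC cells lay in the superficial layers of coronal slices and CA3 cells in horizontal slices. Cytosol was drawn into the patch pipette and polyadenylated RNA was made into 1 library per cell. No agent or genotype separated the cells. The series record gives 8 mice in total and names no mouse for any cell. The cells of a region were therefore treated as 1 sample, no test was made between cells with and without Nos1 reads, and each range or SD is a description of these particular cells.

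Nos1 (chr5:117781032-117958840 on the plus strand in GRCm38, a protein-coding gene) was read in the 7 AC cells at 467 to 831 reads with a median of 628. In CA3 the 10 cells had 251 reads in N26, 161 in N28, 153 in N30, 854 in N32, 536 in N33, 69 in N34, 1055 in N37, 1415 in N38, 488 in N39 and 1363 in N40. The CA3 cells thus covered a wider range than the AC cells, and N34 was the cell just inside the limit, at 13.8 reads per 1000000 reads on genes (CPM). The 6 cells outside it, N44, N46 and N7 of AC and N27, N29 and N31 of CA3, were all at 0 reads, which allows up to 0.834 to 1.33 CPM by a limit of 3 reads. No cell of the 23 had a lower count above 0 than N34, and a split at 10 reads gave the same sets. These limits cover counting error only, since the reads come from amplified cDNA. An exon of Nos1 overlaps an exon of a gene on the opposite strand (Gm26995), and the strand used for counting is not given in the sources used here.

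The cells without Nos1 reads were not the shallowest. Total reads on genes ran from 1715012 to 6265431 in the AC cells with Nos1 and from 2253229 to 3296108 in those without, and from 2229519 to 7949918 against 2500481 to 3595383 in CA3. The number of genes with a read was 3163 to 6288 (median 5054) in the AC cells with Nos1 and 3738 in N44, 4637 in N46 and 5308 in N7. The CA3 range was 3679 to 8149 (median 5894.5) with Nos1 and 4390 in N27, 6699 in N29 and 5381 in N31. Both quantities overlapped between the sets in each region. The mean number of detected genes was higher by 281 in AC and by 481 in CA3 in the cells with Nos1, less than the SD over those cells of 1201 and 1301.

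**Figure D1:**
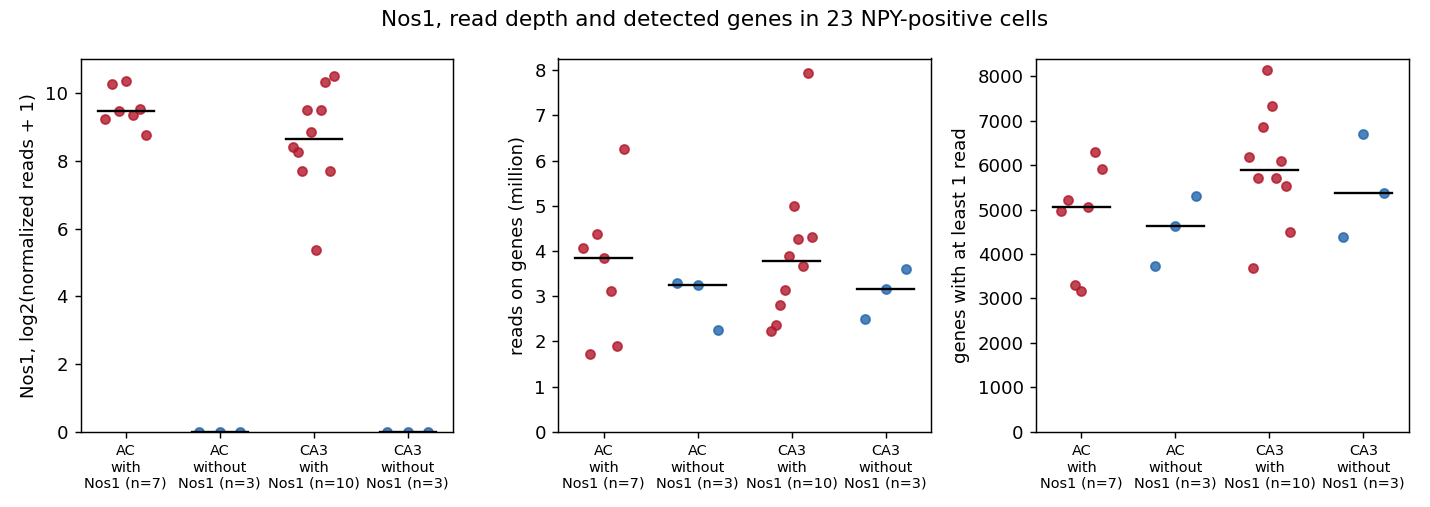
Nos1 level (log2 of normalized reads + 1), reads on genes (in units of 1000000 reads) and number of genes with a read, per cell; red points are cells with Nos1 reads, blue points cells without, and bars are medians. The cells without Nos1 lie at 0 in the left panel and inside or near the range of the other cells in the middle and right panels.

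Genes of the GABAergic and NPY identity were read in both sets. Npy, Gad1 and Gad2 were read in all 23 cells. Npy was at 4020.2 to 56973 normalized reads (median 18222) in the AC cells with Nos1 and at 4997 in N44, 12089 in N46 and 8629.97 in N7. In CA3 it was at 832 to 21271 normalized reads (median 4319.6) with Nos1 and at 5441 in N27, 5391 in N29 and 3538 in N31. The cells without Nos1 lay within the range of the others in both regions. Gad1, which makes most of the GABA of the cell body, was at 17507 to 83001 in the 7 AC cells with Nos1 and at 17415 in N44, 23854 in N46 and 2483 in N7, so that N46 lay inside that range, N44 just below it and N7 well below it. In CA3 the cells without Nos1, at 19088 in N27, 15168 in N29 and 19174 in N31, lay within the 7469.7 to 59884 of the others. The vesicular GABA transporter gene Slc32a1 was lower with Nos1, by 2.73 in AC and 2.33 in CA3 on the log2 scale explained below, and had reads in 3 of 7 AC and 9 of 10 CA3 cells with Nos1 against 2 of 3 and 3 of 3 without.

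Markers of other cells were present in both sets. The summed level of 10 microglia markers was 0 to 5530 CPM in the AC cells with Nos1 and 0 to 3092 CPM in those without, and 0.801 to 1564 against 0.947 to 2392 CPM in CA3, with Tmem119 at 0 in all 23 cells. For 10 astrocyte markers the ranges were 33.04 to 3252 against 0.303 to 1119 CPM in AC and 0 to 660 against 10.3 to 246 CPM in CA3, and Aqp4 and Gjb6 were at 0 throughout. The 10 oligodendrocyte markers summed to 0 to 325 against 0 to 367 CPM in AC and to 0 to 1043 against 0 to 376 CPM in CA3, with Mog and Olig2 at 0. For 10 pyramidal cell markers the values were 0.229 to 109 against 56.8 to 190 CPM in AC and 0.401 to 530 against 0.400 to 71.8 CPM in CA3. The 10 endothelial and mural markers reached at most 36.5 CPM with Nos1 and 81.5 CPM without, and Cldn5 was at 0. All these ranges overlapped between the sets, and of the 17 markers with a read in at least 6 cells 0 passed the limit explained below in the same direction in both regions, as 9.21% of all genes kept did. The astrocyte glutamate transporter gene Slc1a2 passed it in opposite directions, with 6.01 in AC and -2.53 in CA3. Of 8 markers of PV, SST and VIP interneurons, Sst, Vip, Chodl, Calb2 and Chat were at 0 in all 23 cells. Their part in the differences below was not tested. Reads of 4 Y-linked genes, at 10 or more per cell, were found in 3 of 7 AC cells with Nos1 and 1 of 3 without, but in 7 of 10 CA3 cells with Nos1 and 0 of 3 without, where at most 1 read was seen. Y-linked reads therefore went with the split in CA3, and their part in the CA3 differences was not tested.

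Of the genes counted, 8510 had reads in 6 or more of the 23 cells and were kept. Counts were divided by the scran size factor of each cell, which gives normalized reads, and levels are log2(normalized reads + 1). The difference was the mean over cells with Nos1 minus the mean over cells without, less the median of that difference over all genes kept, which was 0.41 in AC and 0.22 in CA3. The limit was a difference of at least 2 or at most -2, a factor of 4, and a gene was called higher or lower in both regions where it passed the limit in that direction in each. On this scale a gene that is read in some cells and absent from others has a large difference, and where all cells of a set were at 0 the value depends on the added 1 and is no fold change.

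Other genes of nitric oxide synthesis and cGMP signaling mostly did not pass the limit in the same direction in both regions. Of 32 genes listed, 18 were kept, 0 were higher and 2 were lower with Nos1 in both regions, against 5.18% of all genes kept that were higher and 4.03% that were lower. The median difference of the 18 genes was -0.68 in AC and -0.27 in CA3. Of the other synthases, Nos2 was read in 1 cell of CA3 and endothelial Nos3 in 3 of 7 AC and 6 of 10 CA3 cells with Nos1 and in 1 of 3 and 0 of 3 without, at no more than 289 normalized reads.

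Nosip (chr7:45062429-45078210, plus strand), whose protein binds nitric oxide synthases, was lower with Nos1 in both regions. In AC it was read in 2 of 7 cells with Nos1, at 0 to 251 normalized reads, and was at 1718 in N44, 104 in N46 and 502 in N7. Within CA3 it was at 0 to 518 normalized reads (median 153) in the cells with Nos1 and at 785 in N27, 445 in N29 and 445 in N31. All 6 cells without Nos1 had Nosip reads, against 9 of 17 with Nos1, and the sets still overlapped in each region. Its difference was -7.03 in AC and -4.14 in CA3 and stayed past the limit with each of the 23 cells left out in turn. It did not with all libraries labelled as NPY-positive cells of AC and CA3, and was then -1.70 in AC and -0.63 in CA3. Of those libraries, 4 in AC and 7 in CA3 had no Gad1 or Npy reads. The AC libraries N47 and N52, with 1 Nos1 read each, counted there as cells with Nos1, and N4 was averaged with N4X, a library much like it.

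Pde9a, a phosphodiesterase that breaks down cGMP, was the other lower gene. It was at 0 in N44, 321 in N46 and 604 in N7 in the AC cells without Nos1 and at 0 to 75.9 in those with it. CA3 cells had low levels throughout, with 0 in N27, 11.8 in N29 and 10.996 in N31 and a highest value of 18.5 among the cells with Nos1. The difference of -3.94 in AC and -2.21 in CA3 fell inside the limit without N31. Pde2a, a phosphodiesterase that cGMP itself stimulates, passed the limit in CA3, where it was read in 10 of 10 cells with Nos1 at 8.17 to 3147 normalized reads (median 320.5) and was at 1.46 in N27, 25.8 in N29 and 0 in N31, a difference of 5.35. In AC it had 1 read in N43 and 1 read in N7, with a difference of -0.67.

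Of the guanylyl cyclase subunits, Gucy1b3, which carries the heme to which nitric oxide binds, had reads in 4 of 7 AC cells with Nos1 and 8 of 10 in CA3 and in 1 of 3 and 3 of 3 without, with differences of -0.998 in AC and -2.80 in CA3, past the limit in CA3. Gucy1a3 was read in 6 cells and Gucy1a2 in 6 cells. The cGMP-dependent kinase genes Prkg1 and Prkg2 were read in 2 cells and 1 cell of the 23. Slc7a3, a cationic amino acid transporter that carries arginine, was read in 8 of 10 CA3 cells with Nos1 at up to 1515 normalized reads and was at 5.86 in N27, 0 in N29 and 0 in N31, but in AC it had reads in N8, at 448, and in N7, at 1.49. Among the scaffold partners of the synthase, Dlg4 had differences of -0.68 in AC and -1.11 in CA3 and Nos1ap of 0.85 in AC and -2.005 in CA3. The CA3 value of Nos1ap was 0.033 without N29, and with each cell left out its AC value ran from -0.96 to 3.43. Dynll1, a dynein light chain that binds the enzyme, went in opposite directions, with -2.002 in AC and 2.42 in CA3.

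Of 16 marker genes of neurogliaform and Ivy cells 13 were kept, and 1, Gabra5, was higher and 1, Ndnf, lower in both regions, close to the 5.18% and 4.03% of all genes kept. In AC 1 was higher and 2 were lower, against 22% and 22.4% of all genes, and in CA3 6 were higher and 1 lower, against 21.3% and 16.7%. The median difference was 0.60 in AC and 1.82 in CA3, and -0.37 in AC without N46 and -0.33 in CA3 without N29. Lamp5 was read in all 10 AC cells, at 1569 to 11132 normalized reads (median 4342) with Nos1 and 10794 in N44, 1391 in N46 and 1085 in N7. CA3 cells had it at 1332 to 7019 normalized reads (median 2024) with Nos1 and at 618 in N27, 0 in N29 and 2603 in N31. Cell N29 was the single cell of the 23 without Lamp5 reads.

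N29 stood apart from the other CA3 cells in several genes. It had 2282 normalized reads of Ndnf, the neuron-derived neurotrophic factor gene used to mark superficial neurogliaform cells, while the other 12 CA3 cells had none. Cnr1, the cannabinoid receptor CB1, was at 10513 in N29, at 0 in N27 and N31 and at most 921 in the CA3 cells with Nos1. N29 also had 0 reads of Hapln1, Cacna2d1 and Gabrd, which N27 and N31 expressed. Gene differences in CA3 therefore rest in part on 1 cell that differs from the other 2 without Nos1 in such genes. Over all genes kept N29 did not stand apart. Its median Pearson's r with the other cells was 0.319, against 0.295 in N27, 0.322 in N31 and 0.289 to 0.351 in the CA3 cells with Nos1.

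In AC, Ndnf was at 7886 in N44, 0 in N46 and 2888 in N7, and at 0 to 3093 normalized reads (median 65.04) in the 7 cells with Nos1, of which 5 had reads. The difference of -2.97 in AC and -3.94 in CA3 ended without N44, N7 or N29. Gabra5, the α5 subunit of extrasynaptic GABAA receptors, was read in 4 of 7 AC cells with Nos1 at up to 2103 normalized reads and in 7 of 10 CA3 cells at up to 2018. Of the cells without Nos1, N46 alone had Gabra5, at 6.48. The difference of 4.66 in AC and 4.13 in CA3 passed the limit with each cell left out. Kit, the stem cell factor receptor, and Sv2c, a synaptic vesicle protein, were read in all 10 AC cells, and Id2, a transcriptional inhibitor, in all 23.

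The cells with Nos1 did not carry the marker set of long-range nNOS neurons. Sst, Chodl, Hcrtr1, Crh, Crhbp, Pdyn and Vip were at 0 reads in all 23 cells. Tacr1, the substance P receptor, was read in 3 CA3 cells with Nos1, with 38 reads in N32, 389 in N33 and 535 in N39, and in no other cell. Of 15 genes of this list 3 were kept, too few to set against the 5.18% of all genes, and Cort was higher in both regions while Cck and Pnoc were not. Cort, the cortistatin gene, was at 0 to 659 normalized reads (median 320.3) in the AC cells with Nos1 and at 0 in N44, 141 in N46 and 92.3 in N7, and at 0 to 490.1 normalized reads (median 114) in CA3 against 158 in N27, 0 in N29 and 0 in N31. It overlapped in both regions, and its difference of 2.32 in AC and 3.09 in CA3 ended without N41, N42, N44, N29 or N31. Pnoc, which encodes the precursor of nociceptin, was read in all 23 cells. In AC it was at 698 to 2582 normalized reads (median 1424) with Nos1 and at 219 in N44, 519.8 in N46 and 552 in N7, so that the lowest cell with Nos1 lay above the highest without. Among CA3 cells it was at 759.9 to 3383 normalized reads (median 1550.1) against 889 in N27, 963 in N29 and 53.9 in N31, with overlap. The differences were 1.27 in AC and 1.82 in CA3.

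Of the transcription factors of the MGE and CGE lineages, the ganglionic eminences from which cortical interneurons arise, 0 of the 7 MGE genes and 0 of the 6 CGE and preoptic genes kept passed the limit in both regions, numbers too small to set against the 5.18% higher and 4.03% lower of all genes. Lhx6, which MGE-derived interneurons keep, was at 0 in all 10 AC cells. In CA3 it was read in all 10 cells with Nos1, at 1.81 to 3313 normalized reads (median 1566), and was at 2.93 in N27, 0 in N29 and 429.96 in N31, a difference of 5.74. Nkx2-1, which specifies MGE progenitors, was read in 6 of 10 CA3 cells with Nos1 at up to 113 normalized reads and in no other cell of the 23. The low end of the range of Lhx6 with Nos1 was N38 alone, at 1.81, below N27 and N31. The other CA3 cells with Nos1 were at 472 to 3313, above N27, N31 and N29, which had none. Prox1, kept by CGE-derived cells, was read in 5 of 7 AC cells with Nos1 and 2 of 3 without, with a difference of -2.26, and in CA3 in 2 of 10 and 0 of 3. The medians were 0.68 in AC and 1.80 in CA3 for 7 MGE genes and -0.49 in AC and 0.40 in CA3 for 6 CGE and preoptic genes, against 0 over all genes kept by construction. Without N29 the CA3 medians were -1.45 and -1.65, and without N7 the AC median of the MGE genes was -0.67.

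**Figure D2:**
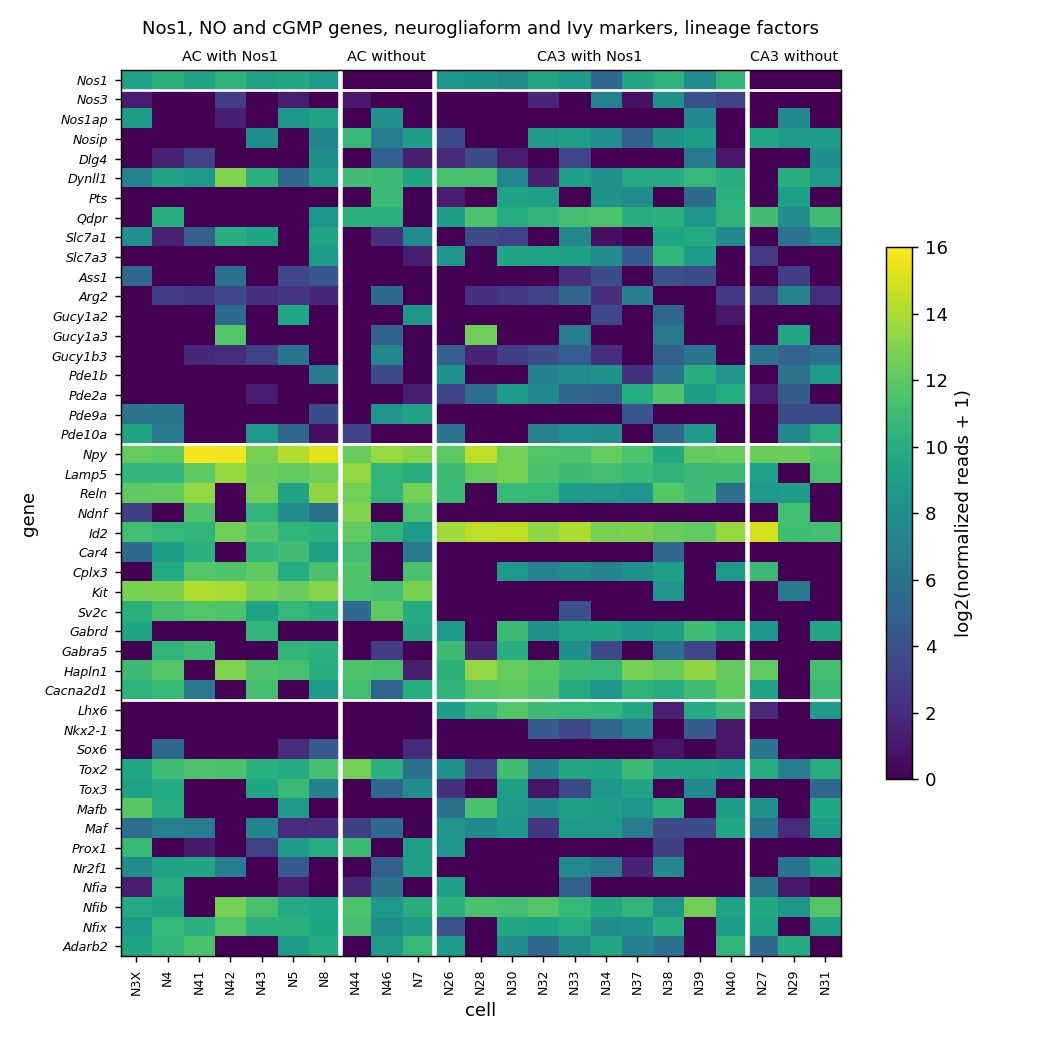
Level of each gene (rows) in each of the 23 cells (columns) as log2(normalized reads + 1), by region and by Nos1; white lines separate the sets of cells and, from top to bottom, Nos1, nitric oxide and cGMP genes, neurogliaform and Ivy markers, and lineage factors. Nosip is filled in all 6 cells without Nos1, Lhx6 is empty in AC, and N29 lacks Lamp5 and has Ndnf.

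Across the transcriptome, differences between cells with and without Nos1 passed the limit for many genes within each region, and genes past it in one region were past it in the other about as often as all genes kept. In AC 22% of the 8510 genes were higher with Nos1 past the limit and 22.4% lower, and in CA3 21.3% were higher and 16.7% lower. In both regions 441 genes (5.18%) were higher and 343 (4.03%) lower, while 323 (3.80%) were higher in AC and lower in CA3 and 429 (5.04%) the reverse. Genes that agreed were thus 9.21% and genes that opposed 8.84% of those kept. Of the genes higher in AC 23.5% were also higher in CA3, where 21.3% of all genes were, and of the genes lower in AC 18.03% were also lower in CA3, where 16.7% of all genes were. The share with the same sign was 49.8%, and Pearson's r between the 2 sets of differences was 0.008 and Spearman's rho 0.0008. These are across genes within the same 23 libraries, and genes are not independent replicates. The AC and CA3 differences have no cell in common, although the size factors were estimated over all 23.

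No gene separated the cells without overlap in the same direction in both regions (0.00%). In AC the lowest cell with Nos1 lay above the highest without for 35 genes (0.411%) and the reverse held for 56 (0.658%), and in CA3 the numbers were 12 (0.141%) and 40 (0.470%). Of the 3720 genes read in 6 to 11 cells, 169 (4.54%) were higher and 148 (3.98%) lower in both regions, of the 2895 read in 12 to 17 cells 213 (7.36%) and 145 (5.01%), and of the 1567 read in 18 to 22 cells 59 (3.77%) and 49 (3.13%). Of the 328 genes read in all 23 cells, 0 were higher and 1 was lower (Fbxl15, -2.09 in AC and -2.89 in CA3, named here after its values were seen). With each cell left out in turn, 110 of the 441 higher genes (24.9%) and 59 of the 343 lower genes (17.2%) passed the limit every time. Leaving out 1 of the 6 cells without Nos1 ended the call for 307 and 278 of them, and leaving out 1 of the 17 cells with Nos1 ended it for 243 and 137. With all labelled cells 93 of the 441 and 25 of the 343 were called, and of the list genes described here 5 of 12 higher and 4 of 13 lower. Without subtraction of the median, 596 genes were higher and 261 lower.

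**Figure D3:**
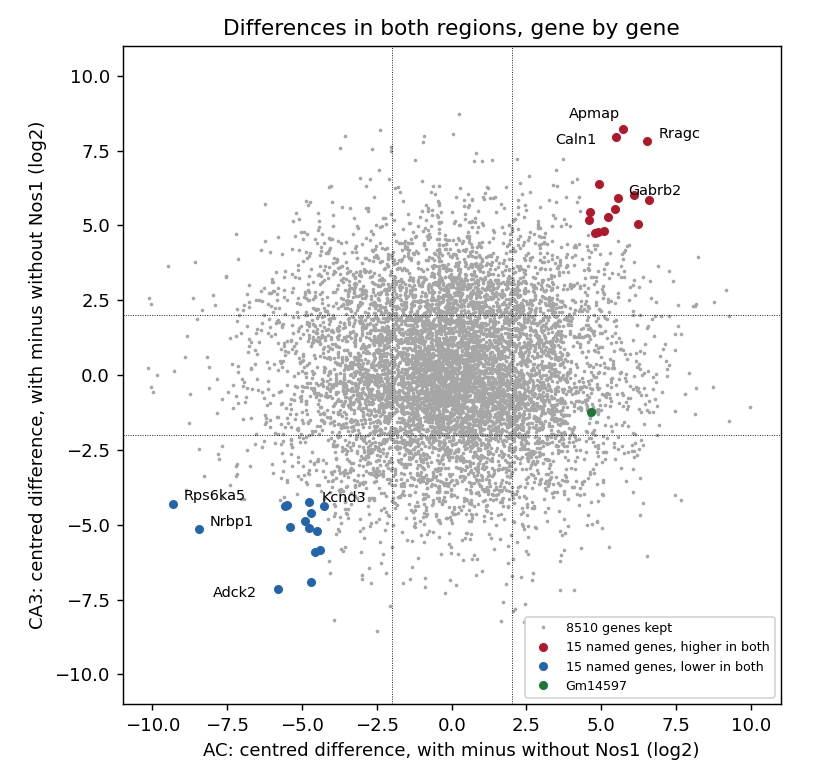
Difference between cells with and without Nos1 reads in AC (horizontal axis) and CA3 (vertical axis), log2 scale after subtraction of the median, 1 point per gene for 8510 genes; dotted lines mark the limits of 2 and -2. The points form a round cloud (Pearson's r 0.008), and the 30 colored genes were chosen as its 2 far corners.

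The 15 genes with the largest agreeing value, meaning the smaller of the AC and CA3 differences, were chosen by that value, so their differences are a description. Rragc (chr4:123917446-123936997, plus strand) encodes a Rag GTPase that recruits mTORC1 to the lysosome. AC cells had it at 0 to 4919 normalized reads (median 1282) with Nos1 and at 0 in N44, 80.4 in N46 and 0 in N7. Levels in CA3 were at 0 to 1054 normalized reads (median 450.4) with Nos1 and at 0 in N27, N29 and N31. Of the cells with Nos1, N43 and N28 lacked it, and of those without, N46 alone had it, a difference of 6.54 in AC and 7.81 in CA3.

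Apmap (chr2:150583080-150608567, minus strand), a protein associated with the plasma membrane, was at 0 in all 6 cells without Nos1. It was read in 4 of 7 AC cells with Nos1 at up to 5088 normalized reads and in 9 of 10 CA3 cells at up to 2134, with differences of 5.72 in AC and 8.24 in CA3. Atp11b, a phospholipid flippase, had reads in 6 of 7 AC cells with Nos1 and 10 of 10 in CA3, and N29 alone of the others had it, at 404. Ap3b2, the neuronal β subunit of the AP-3 vesicle coat, was read in 16 of 17 cells with Nos1 and in 3 of 6 without. Pacs1, which sorts cargo at the trans-Golgi network, had reads in 4 of 7 AC cells and 7 of 10 CA3 cells with Nos1 and in none without.

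Also among the 15 was Gabrb2 (chr11:42419757-42629028, plus strand), the β2 subunit of GABAA receptors, which was at 0 to 4503 normalized reads (median 1022) in the AC cells with Nos1 and at 0 in N44, 445 in N46 and 0 in N7. In CA3 it was at 0 to 1224 normalized reads (median 219.5) against 0 in N27, 1.07 in N29 and 0 in N31. Gabrb2 was thus read in 14 of 17 cells with Nos1 and 4 of the 6 others had no read, and N46 overlapped in AC. Caln1 (chr5:130369455-130847412, plus strand), a calmodulin-like protein of the Golgi, was read in 16 of 17 cells with Nos1. Within AC it was at 282 to 5506 normalized reads (median 861) with Nos1 and at 3089 in N44, 0 in N46 and 0 in N7, so N44 lay within the range of the 7 cells. In CA3 its median was 844 with Nos1, and N27, N29 and N31 were at 0. Adam23, a membrane protein that binds the secreted protein LGI1, had reads in 7 of 7 AC cells with Nos1 and 9 of 10 in CA3. In the others it was read only at 10.4 in N7 and 7.70 in N31. Some cells with Nos1 were as low, with 5.85 in N3X, 4.99 in N41 and 14.2 in N5 of AC and 14.9 in N40 of CA3.

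Of the remaining higher genes, Vps72 belongs to chromatin complexes that deposit the histone variant H2A.Z, Gpn1 is a GTPase needed for nuclear import of RNA polymerase II, Gpaa1 attaches GPI anchors to proteins, and Cul3 is the scaffold of a ubiquitin ligase. Vps72 had reads in 5 of 7 AC cells with Nos1 and 9 of 10 in CA3, and in N29 alone among the others, at 4.30 normalized reads. Gpn1 was read in 12 of 17 cells with Nos1 and in 0 of 6 without. Stk25, a serine/threonine kinase, was read in all 7 AC cells with Nos1 but reached 1397 in N46. Slc25a17, a peroxisomal cofactor carrier, was read in N29 at 1141 and in no other cell without Nos1. Ptgr2, a prostaglandin reductase, was read in 10 of 17 and 0 of 6 cells. Over the 15 genes the differences ran from 4.58 to 6.60 in AC and from 4.75 to 8.24 in CA3, and all 15 stayed past the limit with each cell left out. They were chosen for values far past the limit, so this was largely set by the choice and supports nothing. With all labelled cells 13 did, and Gpaa1 and Ptgr2 did not.

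**Figure D4:**
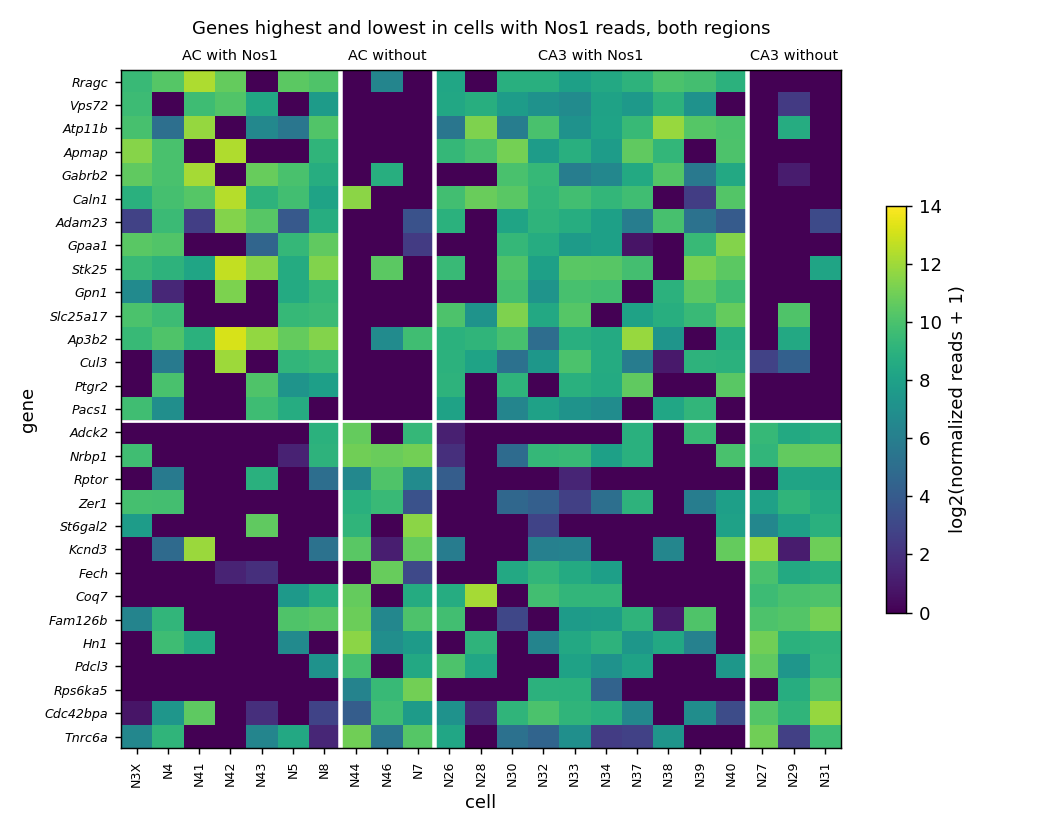
Level as log2(normalized reads + 1) of the 15 genes with the largest (above the horizontal line) and 14 of the 15 with the smallest agreeing value (below it) in each of the 23 cells, by region and by Nos1. The upper genes are mostly empty in the 3 cells without Nos1 of each region and the lower genes are mostly filled there, and single cells such as N46 and N29 break the pattern.

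Among the 15 lowest genes, Nrbp1 (chr5:31240864-31251566, plus strand), a pseudokinase adaptor, was read in all 6 cells without Nos1. In AC it was at 1972 in N44, 1754 in N46 and 2057 in N7, above the 0 to 849 of the 7 cells with Nos1, of which 4 had none. Within CA3 it was at 599 in N27, 1586 in N29 and 1636 in N31 against 0 to 1023 normalized reads (median 139.6). The AC cells did not overlap and the CA3 cells did, with differences of -8.44 in AC and -5.15 in CA3. Rps6ka5 (chr12:100548439-100726983, minus strand), the kinase MSK1 that phosphorylates CREB and histone H3, was at 0 in the 7 AC cells with Nos1 and at 75.96 in N44, 696 in N46 and 2045 in N7. In CA3 it was read in 3 of 10 cells with Nos1 at up to 512 and was at 0 in N27, 427 in N29 and 1181 in N31.

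Kcnd3 (chr3:105452330-105674002, plus strand), the Kv4.3 subunit of A-type potassium channels, was at 1344 in N44, 1.296 in N46 and 1681 in N7 in AC and at 3468 in N27, 1.07 in N29 and 1909 in N31 in CA3 in the cells without Nos1. It was read in 3 of 7 and 5 of 10 cells with Nos1, at up to 3754 and 1628 normalized reads. All 6 cells without Nos1 had reads, but N46 and N29 had 1 read each, and the difference of -4.70 in AC and -4.59 in CA3 was carried by the other 4. Its interaction partner Kcnip1, the auxiliary subunit KChIP1, went in opposite directions in the 2 regions, as described below.

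Adck2 (chr6:39573873-39588769, plus strand), a mitochondrial protein of the family that serves coenzyme Q synthesis, had reads in 1 of 7 AC cells with Nos1 and 3 of 10 in CA3 and in 2 of 3 and 3 of 3 without. CA3 cells had it at 654 in N27, 367 in N29 and 444 in N31, and its differences were -5.80 in AC and -7.16 in CA3. Coq7, a hydroxylase of coenzyme Q synthesis, was at 782 in N27, 1014 in N29 and 1088 in N31 and at 1675 in N44, 0 in N46 and 387 in N7, and was read in 7 of 17 cells with Nos1. Fech, which inserts iron into heme, was at 1028 in N27, 365 in N29 and 443 in N31 in CA3 but in AC only N46 had more than a few reads, at 1732, and the call ended without that cell.

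Rptor, the raptor subunit of mTORC1, was lower by the same measure by which Rragc was higher. It was at 93.5 in N44, 1133 in N46 and 107 in N7 in AC, where 3 of 7 cells with Nos1 had reads, and at 0 in N27, 286 in N29 and 277 in N31 in CA3, where 2 of 10 had. Zer1, a substrate receptor of a ubiquitin ligase, Fam126b, part of a phosphatidylinositol kinase complex, Hn1, Cdc42bpa, a kinase that acts on the cytoskeleton, and Tnrc6a, which binds Argonaute in microRNA silencing, were each read in all 6 cells without Nos1. They were read in 9, 11, 10, 14 and 12 of the 17 cells with Nos1. St6gal2, a sialyltransferase, and Pdcl3, a folding chaperone, were read in 5 of the 6. Over the 15 genes the differences ran from -9.31 to -4.25 in AC and from -7.16 to -4.23 in CA3, and 14 stayed past the limit with each cell left out. That too was largely set by the choice of genes far past the limit. With all labelled cells the call held for 4 of the 14 described here, Adck2, Rptor, Zer1 and Fech, and ended for 10, with Nrbp1 at -1.05 in CA3, Coq7 at -0.89 in AC and -0.57 in CA3 and Hn1 at -0.84 in AC and -0.71 in CA3.

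By presence or absence of reads alone, 4 genes followed Nos1 in 21 of 23 cells, the most among the 22800 genes counted, and 15 genes in 20 or more. The 4 genes were Atp11b, Caln1, Babam1 and Btf3. Since 17 cells had Nos1 reads, a gene read in all 23 cells, as 328 of the genes kept were, already matches it in 17. Babam1, a subunit of the BRISC deubiquitinase, was at 241 to 1588 normalized reads (median 598) in the AC cells with Nos1 and at 0 in N44, N46 and N7, so the AC cells did not overlap. In CA3 it was read in all 10 cells with Nos1 but also at 1856 in N27 and 108 in N31, with 0 in N29. Its difference of 8.78 in AC and 2.43 in CA3 turned to -1.02 in CA3 without N29. Btf3, a subunit of the nascent polypeptide-associated complex, was read in all 17 cells with Nos1 and, of the others, at 241 in N46 and 1407 in N27. With all labelled cells the calls of Babam1 and Btf3 ended, at 1.82 and 0.54 in CA3. No gene was read in exactly the cells in which Nos1 was.

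Some genes differed as strongly but in opposite directions. Higher in AC and lower in CA3 were Elp2 (6.53 in AC and -6.04 in CA3), a subunit of the Elongator complex, Pcp4l1 (5.27 in AC and -5.75 in CA3), Kcnip1 (5.02 in AC and -5.10 in CA3), Snapc1 (4.85 in AC and -4.92 in CA3), which serves small nuclear RNA transcription, and Psph (4.85 in AC and -4.88 in CA3), the last enzyme of serine synthesis. Genes lower in AC and higher in CA3 included Trappc2l (-6.23 in AC and 5.72 in CA3), a vesicle tethering subunit, the ribosomal protein gene Rpl34 (-5.21 in AC and 5.40 in CA3), Zranb1 (-5.10 in AC and 5.21 in CA3), a deubiquitinase, and Hdac6 (-4.86 in AC and 5.83 in CA3), a cytoplasmic deacetylase. Reads of Rpl34 may be shared with near-identical copies in the genome and its value is uncertain. With all labelled cells the sign changed for Zranb1 in AC and for Rpl34 in both regions. Only changes of sign are given for these genes under that setting, not whether each stayed past the limit.

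Kcnip1 illustrates the pattern. AC cells had it at 0 to 1957 normalized reads (median 781) with Nos1 and at 0 in N44, 0 in N46 and 399 in N7, and in CA3 it was read in 2 of 10 cells with Nos1 and was at 0 in N27, 2013 in N29 and 588 in N31. Elp2 was at 0 in the 3 AC cells without Nos1 and at 969 in N27, 693 in N29 and 1377 in N31 in the 3 CA3 cells. Gm14597 (chrX:53577087-53608979, minus strand), a predicted protein-coding gene read in all 23 cells, was the 1 gene (0.0118%) whose cells did not overlap in either region, and it did so in opposite directions. Within AC it was at 118 to 496 normalized reads (median 156) with Nos1 and at 10.5 in N44, 2.59 in N46 and 2.98 in N7. Among CA3 cells it was at 54.8 to 224 normalized reads (median 169) with Nos1 and at 289.9 in N27, 274 in N29 and 325 in N31. It was thus higher with Nos1 in AC, by 4.67, and lower in CA3, by 1.23 on the log2 scale. The opposite direction did not hold with all libraries labelled as NPY-positive cells of AC and CA3, which gave 3.70 in AC and 2.29 in CA3.

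Of 13 genes kept for GABA receptors and the inhibitory postsynapse, 2 were higher and 3 lower in both regions, in each direction a larger share than the 5.18% and 4.03% of all genes kept. They included Gabrb2 and Gabrg3 on the higher side and Gabrb1 and Gphn on the lower, and the medians of the list were -0.77 in AC and 0.34 in CA3. In AC 3 were higher and 6 lower, against 22% and 22.4% of all genes. In CA3 3 were higher and 5 lower, against 21.3% and 16.7%. With all labelled cells the Gabrb2 and Gabrb1 calls held and those of Gabrg3 and Gphn ended. Gabrb1, the β1 subunit, was at 0 in N44, 2729.7 in N46 and 1128 in N7 and 0 in N27, 1144 in N29 and 869.8 in N31 in the cells without Nos1, and had reads in 4 of 7 AC cells and 4 of 10 CA3 cells with it, so the β1 and β2 subunits differed in opposite directions (-3.51 in AC and -3.70 in CA3 for Gabrb1). The Gabrb1 call ended without N46. Gphn, the gephyrin scaffold of inhibitory synapses, had differences of -3.09 in AC and -2.37 in CA3. The Gabrg3 call ended without N27, N28, N38 or N40, and the Gphn call without N46, N29, N31, N39 or N40.

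Of 13 glutamate receptor genes kept, 1 was higher and 0 lower in both regions, against 5.18% and 4.03% of all genes, with medians of -0.02 in AC and 1.74 in CA3. Grm5, the metabotropic receptor mGluR5, was read in all 17 cells with Nos1, at medians of 1098 in AC and 795 in CA3. It was at 2648 in N44, 0 in N46 and 1493 in N7 and at 1142 in N27, 0 in N29 and 2282 in N31. The difference of 2.21 in AC and 2.14 in CA3 thus came from N46 and N29, which had none. Without these cells the value was -1.61 in AC and -1.92 in CA3. The call also ended without N41, N42, N28, N32, N38 or N40. The NMDA receptor subunits, whose scaffold holds the nNOS protein at synapses, showed no common direction. Grin1 had 1.57 in AC and 1.93 in CA3, Grin2a -1.98 in AC and 0.24 in CA3 and Grin2b -2.56 in AC and -0.17 in CA3. Of 9 auxiliary subunits of AMPA and kainate receptors kept, 0 were higher or lower in both regions, against 5.18% and 4.03% of all genes, with medians of -0.41 in AC and -0.04 in CA3.

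Of 26 potassium channel genes kept, 6 passed the limit in the same direction in both regions, a larger share than the 9.21% of all genes. Kcnab1, Kcnq3, Kcnmb2 and Kcnj3 were higher and Kcnc4 and Kcnd3 lower, with medians of -0.10 in AC and -0.02 in CA3. In AC 7 were higher and 6 lower, against 22% and 22.4% of all genes. In CA3 7 were higher and 6 lower, against 21.3% and 16.7%. Kcnip1, Kcnh7 and Kcna3 passed the limit in opposite directions, as 8.84% of all genes did. With all labelled cells the Kcnab1 and Kcnc4 calls held and those of Kcnq3, Kcnmb2, Kcnj3 and Kcnd3 ended. Kcnab1, the Kvβ1 subunit that speeds inactivation, was at 0 to 4415 normalized reads (median 892) in the AC cells with Nos1 and at 0 in N44, 0 in N46 and 333 in N7. Levels in CA3 were at 0 to 3509 normalized reads (median 149) against 0 in N27, 3.22 in N29 and 12.1 in N31, and the difference of 5.71 in AC and 4.06 in CA3 passed with each cell left out. Kcnj3, the GIRK1 channel that G proteins open, had reads in 5 of 7 AC cells with Nos1 and 9 of 10 in CA3 and, of the others, in N44 alone, at 179. Kcnc4, the Kv3.4 subunit, did not overlap in CA3, where it was at 324 in N27, 45.1 in N29 and 4.40 in N31 and at most 2.15 in the 10 cells with Nos1, and at 1116 in N44, 362 in N46 and 0 in N7 in AC against up to 609. The Kcnj3 call ended without N4, N41, N46 or N7, the Kcnmb2 call without N3X, N46, N7 or N8, the Kcnq3 call without any of 6 cells and the Kcnc4 call without N44. Kcnh7, an Erg channel, separated the CA3 cells without overlap, with 1.07 to 3866 normalized reads in the 10 cells with Nos1 and 0 in N27, N29 and N31, but was -3.56 in AC.

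Immediate early genes included no lower call. Of 11 kept, 2 were higher and 0 lower in both regions, 5 were higher in AC and 3 in CA3 and 0 were lower in either. Of all genes kept 5.18% were higher and 4.03% lower in both, 22% were higher and 22.4% lower in AC, and 21.3% were higher and 16.7% lower in CA3. The medians of the list were 1.09 in AC and 1.31 in CA3, with -0.24 in CA3 without N29. Nr4a1 was at 15.97 to 2509 normalized reads (median 1093) in the AC cells with Nos1 and at 0 in N44, 0 in N46 and 1361 in N7, and at 0 to 617 normalized reads (median 56.4) in CA3 against 13.2 in N27, 0 in N29 and 0 in N31. Ier2 had reads in 5 of 7 AC cells with Nos1 and 5 of 10 in CA3, and at 860.1 in N44 and 3.22 in N29. Both passed with each cell left out, but not with all labelled cells, where Nr4a1 was 1.26 in CA3 and Ier2 0.62 in AC and 0.44 in CA3. Fos was read in all 23 cells, with differences of 0.33 in AC and 0.68 in CA3. These genes respond within minutes to activity and handling, and the time from slicing to aspiration is not given per cell.

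Of 10 neuromodulator receptor genes kept, 1, Adrb1, was higher and 1, Cnr1, lower in both regions, against 5.18% and 4.03% of all genes. Adrb1, the β1 adrenergic receptor, had reads in 5 of 7 AC cells with Nos1 and 8 of 10 in CA3 at up to 285 and 299 normalized reads, and at 43.2 in N44 and 2.20 in N31. Its difference of 3.22 in AC and 3.80 in CA3 ended without N7. Cnr1 was at 640.4 in N44, 60.9 in N46 and 1761 in N7 in AC, where 3 of 7 cells with Nos1 had reads at up to 882, and its difference was -5.52. In CA3 the difference of -3.56 came from N29 and was 0.38 without it.

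Of 6 genes of calcium-binding proteins kept, 1 was higher and 1 lower in both regions, against 5.18% and 4.03% of all genes. Necab1 was at 11609 in N44, 2513 in N46 and 3275 in N7, above the 0 to 1088 of the AC cells with Nos1, and in CA3 at 1878 in N29 and 0 in N27 and N31, where the difference of -2.38 turned to 0.73 without N29. Necab2 had reads in 6 of 7 AC cells with Nos1 and 10 of 10 in CA3, and was at 0 in N44, 1209 in N46 and 0 in N7 and 602 in N27, 209 in N29 and 0 in N31, with differences of 2.77 in AC and 4.40 in CA3 that fell inside the limit without N44, N7 or N31. Calb2 was at 0 in all 23 cells.

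Of 11 genes of GABAergic identity kept, 0 were higher and 1, Slc32a1, was lower in both regions, against 5.18% and 4.03% of all genes, and the Slc32a1 call ended without N7, N27 or N30. In AC 3 were higher and 2 lower, against 22% and 22.4% of all genes, and in CA3 1 was higher and 3 lower, against 21.3% and 16.7%. Of the homeobox genes of this list, Dlx1 was at 612 to 2383 normalized reads (median 1261) in the 7 AC cells with Nos1 and at 0 in N44, N46 and N7, without overlap, while in CA3 it was read in all 13 cells with a difference of -1.07. Dlx2 was read in all 7 AC cells with Nos1 and, of the others, in N7 at 377, with differences of 6.15 in AC and 0.74 in CA3. Dlx5 and Dlx6 did not share this pattern in AC, where Dlx5 was read in N3X alone and Dlx6 in N3X, N5 and N44.

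Synaptic vesicle genes numbered 20, of which 2, Cplx2 and Unc13a, were lower and 0 higher in both regions, against 4.03% and 5.18% of all genes. Cplx2, a complexin that clamps fusion, was at 2.34 in N44, 321 in N46 and 138 in N7 and 1.46 in N27, 609 in N29 and 159 in N31 without Nos1 and was read in 7 of 17 cells with it, a difference of -4.13 in AC and -3.55 in CA3 that passed with each cell left out but was -1.80 in AC and -0.69 in CA3 with all labelled cells. Unc13a, the priming factor Munc13-1, had -3.66 in AC and -2.41 in CA3 and was lost without N31 or N38. Snap25, Vamp2, Syn1 and Rab3a were read in all 23 cells and differed by at most 1.03 in size in either region. Of 28 adhesion genes kept, against the same shares, 1 was higher and 2, Pcdh10 (-7.80 in AC and -2.64 in CA3) and Ncam1 (-3.51 in AC and -2.35 in CA3, ended without N27, N28 or N33), were lower in both regions.

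Of 37 nuclear genes of respiratory complex I kept, 0 passed the limit in the same direction in both regions, against 9.21% of all genes, and 1, Ndufa10, passed it in opposite directions (5.13 in AC and -2.58 in CA3), against 8.84%. Of the 37, 12 were higher and 5 lower in AC and 1 higher and 2 lower in CA3, against 22%, 22.4%, 21.3% and 16.7% of all genes. The medians were 0.88 in AC and -0.85 in CA3, and the opposite signs were lost without N44, at -0.20 in AC, and with all labelled cells, at 0.046 in CA3.

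Of the 24 libraries outside the 23 cells, 14 had 0 reads of both Gad1 and Npy, so the absence of Nos1 reads in them says little about NPY neurons. Of the other 10, 3 had Nos1 reads. In AC these were N45, with 854 reads, N4X, with 1059, and N47, with 1, and N52, without Gad1 or Npy reads, also had 1. The profile of N4X was nearly that of N4 at another depth (Pearson's r over genes 0.997, against 0.507 for the library next most like N4), so both may come from 1 cell, and N4X was not among the 23. Where all labelled cells were used, N4 and N4X were averaged, and N47 and N52 stood among the AC cells with Nos1. Nos1 was at 0 in 3 libraries of CA1, which had Gad1 and Npy reads, and in 2 of DG (dentate gyrus), which had neither. It was also at 0 in the 8 other CA3 libraries labelled as NPY-positive, of which 7 had no Gad1 or Npy reads, and in the library of the NPY-negative cell. A count of 0 allowed up to 13.5 CPM in the shallowest AC library at 0, below the 116 to 366 CPM of the AC cells with Nos1, and up to 26.8 CPM in the shallowest of CA3, within the range of the CA3 cells with Nos1.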

How the data were processed

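Cytosol of single NPY-positive neurons was aspirated during patch-clamp recording and polyadenylated RNA was sequenced, 1 library per cell. Counts of reads per gene symbol, not normalized, are what the authors deposited, in 1 table for all cells. Their methods name Trimmomatic, Flexbar, STAR and HTSeq, the submitters' processing notes name featureCounts with GRCm38, and counts of features with the same symbol were averaged. Strand use in counting is not given in the sources used here.

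Of 22800 genes, 8510 with reads in at least 6 of the 23 cells were kept. Counts were divided by scran 1.30.0 size factors (pools of 10 and 20, R 4.3.3) and set on the log2 scale after adding 1. Differences and calls were computed with Python 3.11.15, numpy 2.4.6 and pandas 2.3.3, and the procedure was tested on simulated data. No test was made, since the cells of a region count as 1 sample. Total reads on genes were 1715012 to 7949918 per cell.

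Genes named are Nos1, the 15 with the largest and the 15 with the smallest agreeing value, the 5 most opposed in each direction, genes without overlap in both regions, and list members that were called or define their list. Some genes that this rule names are not reported here. Genes that share the pattern of reads of Nos1 were added after their values were seen, as were some list members that differ in 1 region. The cells and the lists were chosen with earlier results of these data known. Coordinates are from GENCODE vM21 (GRCm38), which gave them for 419 of 422 named genes. Of 44 genes looked up, 4 had an exon that overlaps another gene of the count table on the opposite strand (Nrbp1, Psph, Rragc and Stk25), so their reads are uncertain. Alternatives were the size factors of edgeR 4.0.16 and DESeq2 1.42.0, library size, other pseudocounts, filters and limits, thinned cells, all labelled cells and each cell left out. With all labelled cells, N4 and N4X were averaged, and N47 and N52, at 1 Nos1 read each, counted as AC cells with Nos1.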

Additional observations from a re-analysis of the deposited data

Results flagged for a closer look

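Within the groups of 7 AC or 10 CA3 cells with Nos1, 17 of 84 sets of values had a highest or lowest cell set apart from the others by Dixon's criterion. Its rate of about 1 in 20 by chance holds for normally distributed values. Levels with many cells at 0 are not such values, so no chance rate is known here. Most of these genes were chosen for large differences. On the log2 scale, AC cells set apart at the low end were N43 for Rragc, N42 for Gabrb2 and N5 for Kcnip1, each at 0, and N4 for Pcp4l1 at 1.58. Those set apart at the high end in AC were N8 for Adck2 at 8.93, for Pdcl3 at 7.15 and N41 for Gm14597 at 8.96. Among the CA3 cells, N28 was at 0 for Rragc, N40 for Vps72, N39 for Apmap, N34 for Slc25a17 and N26 for Rpl34, and N38 was at 0.93 for Cul3. High CA3 cells were N26 for Rptor at 4.12, N40 for St6gal2 at 8.02 and N39 for Pcp4l1 at 11.30, and N39 also had the most reads, 7949918.

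Gm14597 moved in opposite directions, with every AC cell with Nos1 above and every CA3 cell with Nos1 below the cells without, at 4.67 and -1.23 on the log2 scale. With all labelled cells the values were 3.70 and 2.29, in the same direction. The difference between the regions was not tested.

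Outside the 23 cells, Nos1 was read in the AC libraries N45, with 854 reads, and N4X, with 1059. The profile of N4X was nearly that of N4 (Pearson's r over genes 0.997).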

How the results depend on the processing

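The counts of 441 higher and 343 lower genes ran from 322 to 566 and from 237 to 347 with other size factors, filters on low counts or thinned cells. With a pseudocount of 10 they were 127 and 120, with 0.1 they were 718 and 562, and with a limit of 1 they were 1046 and 863. With all labelled cells there were 437 and 208, of which 93 and 25 were among the main ones, and the cells with Nos1 then had 1746 more detected genes in AC, 2250 more in CA3 and 2734668 more reads in CA3. With each cell left out the counts were 427 to 529 and 337 to 434, and 0 to 3 genes did not overlap in the same direction (1 without N41, 1 without N7 and 3 without N27). The cause of these changes was not tested.

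Of 19584 values of single genes and lists, 804 changed sign, of which 22 were of genes past the limit in both regions, in the same or opposite directions, 665 of other genes (132 with all labelled cells, 439 with a cell left out) and 117 of medians of lists. Of 44 medians 31 changed sign with at least 1 cell left out. With all labelled cells, which include 7 CA3 and 4 AC libraries without Gad1 or Npy reads, the sign changed among genes past the limit for Pdcl3 (0.40), Slc32a1 (1.26), Gphn (0.28), Kcna3 (0.87) and Ndufa10 (0.49) in CA3, for Fam126b (0.81), Zranb1 (0.068), Necab1 (0.70), Erbb4 (1.18) and Kcnmb2 (-0.59) in AC, and for Rpl34 (0.46 and -0.38) and Dynll1 (0.52 and -0.069) in both. With each cell left out, Grm5 ran from -1.61 (without N46) to 4.39 in AC and from -1.92 (without N29) to 4.14 in CA3. The CA3 values without N29 at 1 end were -1.02 to 5.30 for Babam1, -0.12 to 5.83 for Cacna2d1, -4.22 to 0.73 for Necab1 and -5.82 to 0.38 for Cnr1. Those without N27 at 1 end were -0.35 to 3.77 for Dynll1 and -0.64 to 4.57 for Gabrg3. No paired analysis was possible because no label ties cells with and without Nos1 to a mouse. Depth limits absence of reads to 0.834 to 1.33 CPM in the cells without Nos1.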
